A study of Mus musculus with 6 samples.

Results

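The cell cycle enters S phase from G1 through the D-type cyclins, which bind and activate the kinases Cdk4 and Cdk6, and through the retinoblastoma protein Rb1, which these kinases phosphorylate so that E2F factors are released. 2 families of inhibitors act on this step. The INK4 proteins, among them p16Ink4a, 1 of the products of Cdkn2a, and p18Ink4c of Cdkn2c, bind Cdk4 and Cdk6, whereas the Cip/Kip proteins p21 (Cdkn1a) and p27 (Cdkn1b) bind cyclin-Cdk complexes. The tumour suppressor p53 (Trp53) is a transcription factor that activates Cdkn1a and Mdm2, and the ubiquitin ligase Mdm2 in turn marks p53 for degradation. Astrocytes of the adult brain rarely divide, and the same genes also act in the reactive and senescent states of glia.

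10 genes of this pathway were described here, namely Ccnd1, Ccnd2, Ccnd3, Cdkn1a, Cdkn1b, Cdkn2a, Cdkn2c, Trp53, Mdm2 and Rb1. They were chosen by gene symbol from the 17193 genes of the deposited tables, all 10 had a row, and all 10 were among the 12255 genes with a mean of at least 1 FPKM that were tested. FPKM is the number of fragments scaled to transcript length and to library depth, so its levels can be compared between genes. The 6 libraries came from astrocytes of 3-month-old wild type C57BL/6 mice, isolated from brain with beads against ACSA-2, a surface epitope of astrocytes. 3 libraries were labelled Mock and 3 were labelled Quinpirole, for the agonist of the dopamine D2 receptor that these mice had received. The dose and duration of quinpirole for these libraries were not given in the sources used here, and neither was the number of mice behind a library, so the p-values measure the spread between these libraries.

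The libraries held an estimated 22300000 to 27700000 fragments each. Of 10 astrocyte markers, 9 were above 1 FPKM, among them Gfap with a mean of 528 FPKM in Mock and 485 FPKM in quinpirole libraries, while Slc1a2, the main glutamate transporter of mature astrocytes, was low at 5.15 to 8.55 FPKM and Gjb6 lay under 1 FPKM at 0.0562 to 0.281. Several of these levels go against the label of astrocytes taken directly from adult brain, and the cyclin and cycling gene levels given here are those of libraries with this profile, whose part in them was not tested. Of the markers of other cells, all 8 of microglia were above 1 FPKM, with C1qa at 198 to 252 FPKM. The other lists were mixed. Of 8 neuron markers 6 lay under 1 FPKM, among them Snap25 at up to 0.0773, while Stmn2 reached 67.2 FPKM, and of 7 endothelial markers 4 lay under 1 FPKM, among them Pecam1 at up to 0.0596, while Slco1a4 reached 47.6 FPKM. Of 7 oligodendrocyte markers with a row 3 lay under 1 FPKM, among them Mog at up to 0.0639, while Cnp reached 171 FPKM. Of 6 mural markers 4 lay under 1 FPKM, while Acta2 stood at 2518 to 2881 FPKM. In such bulk libraries, fewer cells of a type and less RNA per cell cannot be told apart.

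For 7 of the 10 genes the RefSeq promoter table (GRCm38.p6) held an entry, 11 entries in all. The 250 bases before each start were searched on both strands for the E2F sites TTTGGCGC and TTTCGCGC, the E-box CACGTG and the 10-base p53 half-site. A p53 half-site stood in 3 of the 11 entries, at Cdkn1a, Trp53 and Mdm2, compared with 7.13% of all 32851 promoter windows of this length. Neither E2F sites nor E-boxes stood in the windows of these genes, compared with 0.417%, 0.256% and 6.02% of all windows. The 3 windows with a half-site are shown because they belong to p53 itself and to 2 genes that p53 activates, with the half-sites in capitals, trimmed to the bases outside annotated exons (Cdkn1a chr17:29090729-29090975 on the plus strand, Trp53 chr11:69580256-69580358 on the plus strand, Mdm2 chr10:117710759-117711008 on the minus strand). These matches describe letters only.
Cdkn1a: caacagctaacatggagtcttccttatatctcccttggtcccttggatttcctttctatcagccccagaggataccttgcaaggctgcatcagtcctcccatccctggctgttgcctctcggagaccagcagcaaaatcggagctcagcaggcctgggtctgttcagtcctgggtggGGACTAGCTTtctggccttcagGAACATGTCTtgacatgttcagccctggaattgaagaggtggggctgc
Trp53: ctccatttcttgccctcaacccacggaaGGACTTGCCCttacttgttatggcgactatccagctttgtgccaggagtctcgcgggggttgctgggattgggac
Mdm2: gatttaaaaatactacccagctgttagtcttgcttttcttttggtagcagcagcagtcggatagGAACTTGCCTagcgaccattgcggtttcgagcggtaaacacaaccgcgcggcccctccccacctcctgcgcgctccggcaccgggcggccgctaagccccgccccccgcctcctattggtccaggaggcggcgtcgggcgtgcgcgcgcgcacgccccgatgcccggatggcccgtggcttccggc

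The Cdkn1a window belongs to the upstream of 2 annotated starts, which lie 2790 bases apart. Cdkn2a also has 2 starts, 12427 bases apart, whose transcripts share later exons and encode unrelated proteins, p19Arf from the upstream start and p16Ink4a from the downstream start. p16Ink4a inhibits Cdk4 and Cdk6, and p19Arf inhibits Mdm2. The deposited value is 1 number per gene, so the results on Cdkn2a cannot be assigned to either product. The windows before both starts are shown for this reason, on the minus strand at chr4:89294654-89294869 for the upstream start, trimmed as above, and chr4:89282193-89282442 for the downstream start. Over their full 250 bases the upstream window held 78.4% G and C with 40 CpG dinucleotides, and the downstream window held 60.0% with 7, compared with a median GC content of 52.4% over all windows.
Cdkn2a upstream start: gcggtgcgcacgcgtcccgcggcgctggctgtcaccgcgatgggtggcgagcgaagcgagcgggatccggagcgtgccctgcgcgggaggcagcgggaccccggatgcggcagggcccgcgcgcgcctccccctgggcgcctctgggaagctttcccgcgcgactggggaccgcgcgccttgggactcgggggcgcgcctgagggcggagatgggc
Cdkn2a downstream start: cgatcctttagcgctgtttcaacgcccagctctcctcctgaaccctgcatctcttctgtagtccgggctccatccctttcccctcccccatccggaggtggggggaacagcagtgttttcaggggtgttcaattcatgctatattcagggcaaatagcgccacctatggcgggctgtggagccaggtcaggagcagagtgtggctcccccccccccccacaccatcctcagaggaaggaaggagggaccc

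Ccnd1 led the 10 genes by a wide margin, with a mean over the 6 libraries of 697 ± 21.9 FPKM (SD, n = 6), the 46th highest of all genes in the tables. Cdkn1a followed at 178 ± 6.58 FPKM, Ccnd2 at 97.3 ± 7.47 FPKM and Ccnd3 at 58.5 ± 12.1 FPKM. The ranges of these first 4 genes over the libraries did not overlap one another. Trp53 (46.2 ± 3.59), Cdkn1b (41.3 ± 5.02), Cdkn2a (36.4 ± 3.68), Mdm2 (34.1 ± 2.50) and Cdkn2c (29.5 ± 3.36) formed a group in which each neighbouring pair had overlapping ranges, and Ccnd3 overlapped Trp53 as well. Rb1 was lowest at 10.5 ± 0.638 FPKM, below every other gene of the set in all 6 libraries. Transcripts of the inhibitors were measured alongside those of the cyclins in every library, with Cdkn2a at 32.2 FPKM or more.

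**Figure D1:**
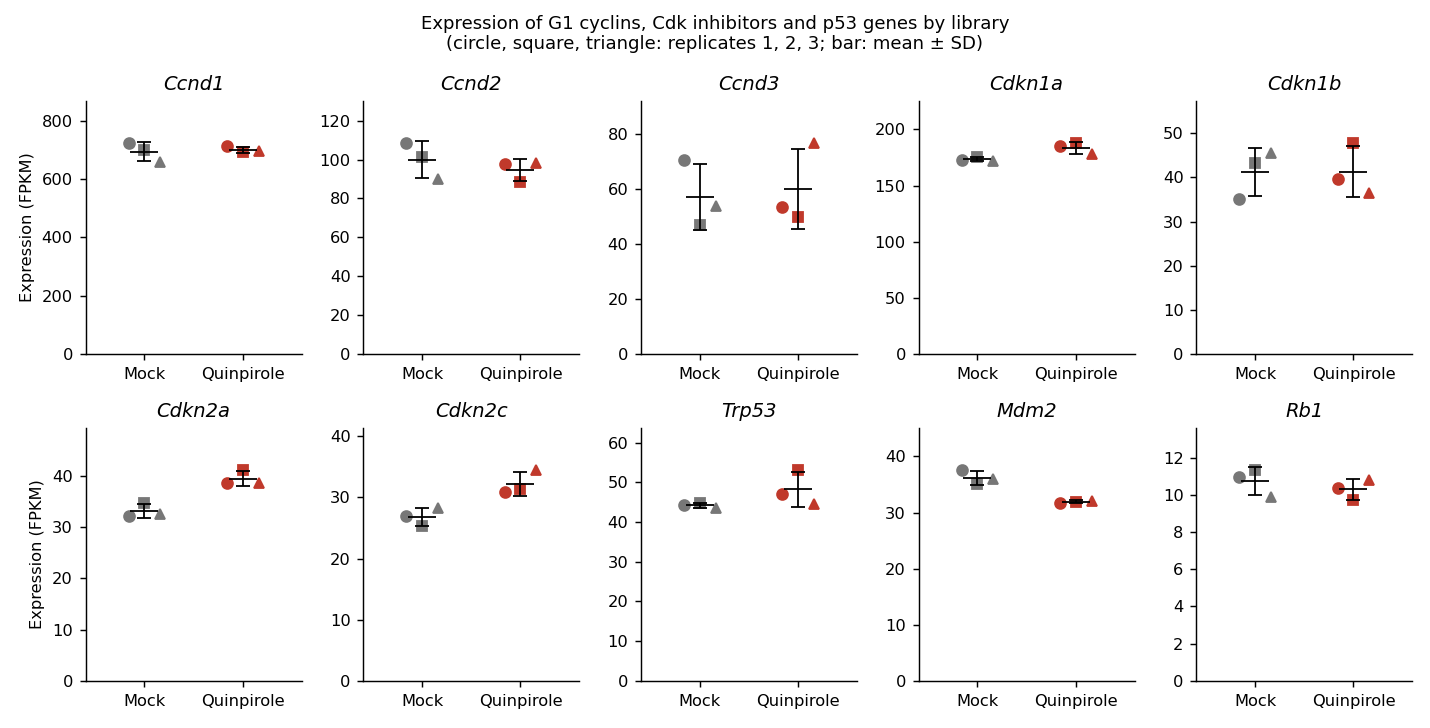
Expression in FPKM of the 10 genes in the 3 Mock (grey) and 3 quinpirole (red) libraries, each panel with its own axis from 0, with symbols for replicates 1 to 3 and bars for the mean ± SD. The Mock and quinpirole libraries are separated for Cdkn1a, Cdkn2a, Cdkn2c (all higher) and Mdm2 (lower), and overlap for the other 6 genes.

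Between the groups, the data show the Cdk inhibitor genes Cdkn2a (1 value for its 2 products) and Cdkn2c higher and the p53 antagonist gene Mdm2 lower after quinpirole, while the 3 D cyclins, Cdkn1a, Cdkn1b, Trp53 and Rb1 did not pass the test. Cdkn2a was 1.19-fold higher, Cdkn2c was 1.19-fold higher, and Mdm2 was 0.884 times its Mock level. These are changes of less than 1.5 times. 3 of 10 genes thus passed an adjusted p of 0.05 in limma on log2(FPKM + 1), with Benjamini-Hochberg adjustment over all 12255 genes, compared with 10.9% of all genes tested. By direction, 2 were higher (5.74% of all genes) and 1 was lower (5.18%). The groups did not overlap for 4 of the 10 genes, against 36.9% of all genes. The median log2 fold change of the 10 genes was 0.039, beside 0.015 over all genes tested.

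Cdkn2a stood at 32.2, 34.7 and 32.7 FPKM in the Mock libraries and at 38.7, 41.2 and 38.6 FPKM in the quinpirole libraries (ENSMUSG00000044303, chr4:89274471-89294653 in GENCODE M21, minus strand). Every quinpirole library lay above every Mock library. The group means were 33.2 ± 1.29 and 39.5 ± 1.48 FPKM (SD, n = 3 each), a log2 fold change of 0.24 (SE 0.046, limma adjusted p = 0.0264). The counting error was 3.65% in the library with the fewest estimated fragments of Cdkn2a, Mock replicate 3 with 751.

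Cdkn2c encodes p18Ink4c, an inhibitor of Cdk4 and Cdk6. It stood at 26.96, 25.3 and 28.2 FPKM in Mock and at 30.8, 31.4 and 34.5 FPKM in quinpirole libraries (ENSMUSG00000028551, chr4:109660876-109667189, minus strand). The groups again did not overlap. The means were 26.8 ± 1.496 and 32.2 ± 1.99 FPKM (SD, n = 3 each), a log2 fold change of 0.26 (SE 0.060, limma adjusted p = 0.0412).

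The change of all genes was graded by transcript length, and this touched both Cdkn2a and Cdkn2c. Split into 5 equal bins by exonic length, the genes of the shortest bin had a median log2 fold change of 0.12 and those of the longest bin of -0.11. Cdkn2a, with 1172 exonic bases, is shorter than all but 3.94% of the genes, and Cdkn2c, with 2686 exonic bases, sits at the 22.7th percentile. When the trend with length was removed, the log2 fold change of Cdkn2a fell to 0.12 (limma adjusted p = 0.183) and that of Cdkn2c to 0.19 (adjusted p = 0.104), so neither passed. In that fit 1 of the 10 genes, Mdm2, passed, and 4.16% of all genes did. The part of the length trend in the result was not tested beyond this correction.

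Mdm2 stood at 37.6, 35.1 and 35.9 FPKM in Mock and at 31.7, 31.9 and 32.1 FPKM in quinpirole libraries (ENSMUSG00000020184, chr10:117688875-117710758, minus strand). All quinpirole values lay below all Mock values, and they spanned a narrow range. The means were 36.2 ± 1.26 and 31.9 ± 0.246 FPKM (SD, n = 3 each), a log2 fold change of -0.18 (SE 0.0395, limma adjusted p = 0.0381). Mdm2 lies near the middle of the length range (56.8th percentile), and after the length correction its log2 fold change was -0.18 with an adjusted p of 0.0464.

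The calls on these 3 genes depended on which libraries were fitted, as did those over all genes. Without Mock replicate 3, Cdkn2a and Cdkn2c still passed and Mdm2 did not, and without any 1 of the other 5 libraries (Mock replicate 1 or 2, or quinpirole replicate 1, 2 or 3) none of the 10 genes passed in limma, although 3 to 5 of them had an unadjusted p under 0.05. Over all genes tested, 0.049%, 0.0245% and 9.64% passed without Mock replicate 1, 2 and 3, and 0.0897%, 0.204% and 1.74% without quinpirole replicate 1, 2 and 3, so the loss of calls is not particular to these genes. The direction of all 3 was the same in each of these fits.

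**Figure D2:**
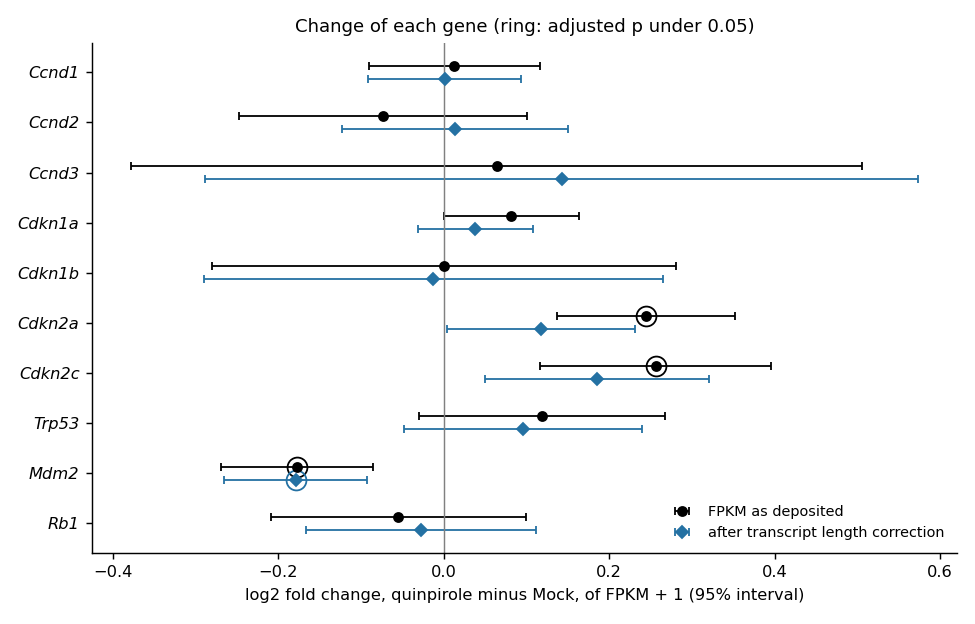
The log2 fold change of FPKM + 1 (quinpirole minus Mock) of each gene with its 95% interval, from the deposited values (black circles) and after the transcript length correction (blue diamonds), with rings for an adjusted p under 0.05. Cdkn2a, Cdkn2c and Mdm2 are ringed before the correction, and Mdm2 alone is ringed after it.

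Among the Cip/Kip inhibitors, Cdkn1a was the most even gene of the Mock group and did not pass the test. It stood at 173, 176 and 172 FPKM in Mock and at 185, 188 and 178 FPKM in quinpirole libraries (ENSMUSG00000023067, chr17:29090976-29100727, plus strand). The groups did not overlap, but the shift was small, with a log2 fold change of 0.082 (95% interval -0.0001 to 0.16, limma adjusted p = 0.160). Cdkn1b stood at 35.2, 43.2 and 45.4 FPKM in Mock and at 39.7, 47.8 and 36.4 FPKM in quinpirole libraries (ENSMUSG00000003031, chr6:134920401-134925513, plus strand). Its libraries mixed freely, its mean was 41.3 FPKM in both groups, and the interval of its log2 fold change ran from -0.28 to 0.28 (adjusted p = 0.998).

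The D cyclins did not pass either, and their intervals differed in width. Ccnd1 stood at 723, 700 and 659 FPKM in Mock and at 713, 692 and 696 FPKM in quinpirole libraries (ENSMUSG00000070348, chr7:144929931-144939925, minus strand). Its quinpirole values all fell within the Mock range, and the 95% interval of the fold was 0.940 to 1.08 (limma adjusted p = 0.864). Ccnd2 stood at 108, 101 and 89.8 FPKM in Mock and at 97.5, 88.3 and 98.2 FPKM in quinpirole libraries (ENSMUSG00000000184, chr6:127125162-127152193, minus strand), with an interval of 0.842 to 1.07 (adjusted p = 0.537).

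Ccnd3 was the most variable of the 10 genes between libraries, with a 1.64-fold span. It stood at 70.4, 46.9 and 53.9 FPKM in Mock and at 53.3, 49.9 and 76.7 FPKM in quinpirole libraries (ENSMUSG00000034165, chr17:47505051-47599691, plus strand). Mock replicate 1 and quinpirole replicate 3 stood apart from the other 4, so the highest value of each group exceeded every low value of the other. The interval of the fold was accordingly wide, 0.770 to 1.42 (limma adjusted p = 0.843). In the same 2 libraries Cdkn1b had its lowest value of the group. Ccnd3 has 21 annotated transcripts, more than a single value per gene can resolve.

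Trp53 and Rb1 completed the set without passing. Trp53 stood at 44.2, 44.8 and 43.6 FPKM in Mock and at 47.0, 53.1 and 44.5 FPKM in quinpirole libraries (ENSMUSG00000059552, chr11:69580359-69591873, plus strand). Quinpirole replicate 3 fell within the Mock range, and replicate 2 was the highest of all 6 (log2 fold change 0.12, 95% interval -0.030 to 0.27, limma adjusted p = 0.244). The ratio of Trp53 to Mdm2 was 1.17, 1.28 and 1.21 in Mock and 1.48, 1.66 and 1.38 in quinpirole libraries, given as a description with no test. Rb1 stood at 10.98, 11.3 and 9.9 FPKM in Mock and at 10.4, 9.70 and 10.8 FPKM in quinpirole libraries (ENSMUSG00000022105, chr14:73183673-73325822, minus strand), and its groups overlapped (log2 fold change -0.055, adjusted p = 0.604).

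Because the library kit does not mark the strand, reads from genes that overlap on opposite strands cannot be told apart. For Ccnd1, 1100 of 4709 exonic bases (23.4%) also lie in exons of LTO1. The shares were smaller for Ccnd2, Ccnd3, Cdkn1a and Rb1, at 3.91% to 8.11% per overlapping gene, and no exon of another gene overlapped Cdkn1b, Cdkn2a, Cdkn2c, Trp53 or Mdm2. In words of 50 bases, Ccnd3 shared 2.47% of its longest transcript with its pseudogene Ccnd3-ps, and Cdkn2a and Cdkn2c shared none with any other gene.

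Summed by family, the D cyclins came to 851 ± 49.6 FPKM in Mock and 855 ± 21.8 FPKM in quinpirole libraries (SD, n = 3 each). Ccnd1 made up 79.9% to 83.3% of this sum in every library. The 4 genes Cdkn2a, Cdkn2b, Cdkn2c and Cdkn2d, which hold the INK4 proteins and, within the Cdkn2a value, p19Arf, summed to 122, 121 and 124 FPKM in Mock and to 134, 143 and 138 FPKM in quinpirole libraries, without overlap. Cdk4 and Cdk6, the targets of the INK4 proteins, summed to 74.6, 76.0 and 74.8 FPKM in Mock and to 81.3, 85.0 and 84.8 FPKM in quinpirole libraries. Both sums were thus higher in the quinpirole libraries, and the ratio of the Cdkn2 sum to the kinase sum was 1.63 ± 0.0387 in Mock and 1.65 ± 0.0244 in quinpirole libraries. These sums and ratios are descriptions with no test, and they were not corrected for transcript length. After the length correction the log2 fold changes of Cdkn2a, Cdkn2b, Cdkn2c and Cdkn2d were 0.12, -0.084, 0.19 and 0.049. None of the 4 passed limma in that fit. Of all single genes tested, 36.9% had groups that did not overlap.

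**Figure D3:**
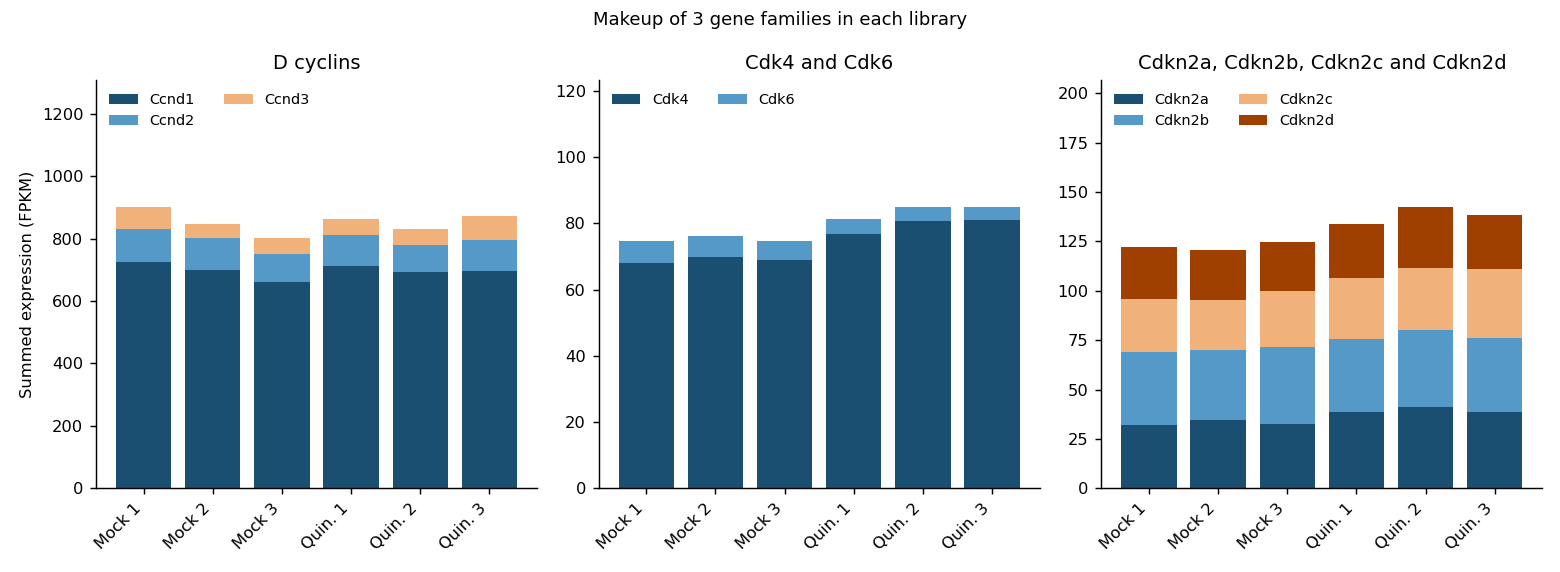
Stacked FPKM of the D cyclins, of Cdk4 and Cdk6, and of Cdkn2a, Cdkn2b, Cdkn2c and Cdkn2d in each library, with an axis from 0 in each panel. Ccnd1 makes up most of the D cyclin bar in all 6 libraries, Cdk4 most of the kinase bar, and the Cdkn2 bars of the 3 quinpirole libraries (134 to 143) stand above those of the 3 Mock libraries (121 to 124). The values are as deposited, without the length correction and without scaling to the FPKM total of each library.

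The other genes of the pathway were followed in 7 lists of 87 genes, all of them tested, of which 14 were higher and 5 were lower after quinpirole by limma at an adjusted p of 0.05, beside 5.74% higher and 5.18% lower of all genes tested. Of the 87, 16 passed without Mock replicate 3, 5 without quinpirole replicate 3, and 0 without any 1 of the other 4 libraries (34 to 37 at an unadjusted p under 0.05). The 2 kinases of the D cyclins moved apart. Cdk4 stood at 67.9, 69.9 and 68.8 FPKM in Mock and at 76.8, 80.7 and 80.9 FPKM in quinpirole libraries (log2 fold change 0.20, SE 0.036, adjusted p = 0.0251). Cdk6 stood at 6.64, 6.18 and 6.01 FPKM in Mock and at 4.51, 4.34 and 3.93 FPKM in quinpirole libraries (log2 fold change -0.47, SE 0.068, adjusted p = 0.0225). The ratio of Cdk4 to Cdk6 was 10.2, 11.3 and 11.4 in Mock and 17.0, 18.6 and 20.6 in quinpirole libraries. Cdk6 has 13989 exonic bases and Cdk4 has 3249, and after the length correction the log2 fold changes were -0.30 (adjusted p = 0.0563) and 0.15 (adjusted p = 0.0515). The other 7 genes of this list, with Cdk2, Cdk7 and the E cyclins, did not pass, and the median of the list was 0.16.

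None of the 4 other Cdk inhibitors passed the limma test. Cdkn2b, which lies beside Cdkn2a and encodes p15Ink4b, stood at 36.7, 35.4 and 39.1 FPKM in Mock and at 37.1, 39.1 and 37.7 FPKM in quinpirole libraries (log2 fold change 0.033, adjusted p = 0.665), so its groups overlapped where those of Cdkn2a did not. For Cdkn2d, the gene of p19Ink4d, the log2 fold change was 0.16 (adjusted p = 0.125). None of the 14 pocket protein, E2F and DP factor genes passed, and the most abundant were Tfdp1 at 52.5 FPKM and E2f6 at 24.1 FPKM over the 6 libraries. The median log2 fold change of that list was 0.075.

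Of 11 genes for the turnover of G1 cyclins and inhibitors, 3 were higher and none was lower by limma (5.74% and 5.18% of all genes). They were Cks1b, a cofactor of the ligase that degrades p27 (log2 fold change 0.27, adjusted p = 0.0383), its relative Cks2 (0.31, adjusted p = 0.0292) and Fbxo4, an F-box protein (0.32, adjusted p = 0.0357). For Ddb1, the most abundant of this list at 213 FPKM, the log2 fold change was 0.015 (adjusted p = 0.771). None of these 3 passed after the length correction.

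Of 13 p53 regulators, 2 were lower and none was higher by limma (5.18% and 5.74% of all genes), and these were Hipk2, a kinase of p53, with a log2 fold change of -0.69 (SE 0.097, adjusted p = 0.0225), and Ep300, an acetyltransferase that acts on p53, with -0.47 (SE 0.064, adjusted p = 0.0225). Hipk2 stood at 11.3, 11.5 and 9.72 FPKM in Mock and at 6.17, 5.58 and 7.21 FPKM in quinpirole libraries. Both passed after the length correction as well (adjusted p = 0.0308 each). Of the regulators, the ribosomal protein genes Rpl11 and Rpl5 were the most abundant at 461 and 151 FPKM and did not pass (adjusted p = 0.0727 and 0.0650).

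Of 24 p53 target genes, 2 were higher, 2 were lower and 20 did not pass by limma (5.74% and 5.18% of all genes were higher and lower, so these counts lie near the background), with a median log2 fold change of 0.012 beside 0.015 over all genes. Gadd45a, a stress-induced growth arrest gene, was higher (0.19, adjusted p = 0.0410), as was Perp, an apoptosis and adhesion gene at 3.07 FPKM (0.30, adjusted p = 0.0375). Trp53inp1, a stress-induced partner of p53, was lower (-0.25, adjusted p = 0.0386), as was the RNA-binding zinc finger gene Zmat3 (-0.35, adjusted p = 0.0383). The pro-apoptotic Bax, the most abundant at 204 FPKM, did not pass (0.20, adjusted p = 0.0534), nor did Phlda3 at 145 FPKM (0.034, adjusted p = 0.581). None of the 24 passed after the length correction.

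Of 12 genes that mark cycling cells, 8 were higher, none was lower and 4 did not pass by limma (5.74% and 5.18% of all genes were higher and lower), with a median log2 fold change of 0.22. Cdk1, the mitotic kinase, stood at 18.8, 19.0 and 21.0 FPKM in Mock and at 26.4, 24.7 and 29.2 FPKM in quinpirole libraries (log2 fold change 0.43, SE 0.071, adjusted p = 0.0246). Rrm2, a subunit of ribonucleotide reductase (0.32), and Cdc20, an activator of the anaphase-promoting complex (0.29), had adjusted p of 0.0225 each. Birc5 (0.26), Ccnb2 (0.22) and Ube2c (0.21), 3 further mitotic genes, passed as well with adjusted p of 0.0277, 0.0257 and 0.0258. Pcna, the most abundant at 88.4 FPKM, did not pass (0.14, adjusted p = 0.0575). Mki67 went the other way, at 15.2, 14.9 and 12.7 FPKM in Mock and 13.5, 11.3 and 13.6 FPKM in quinpirole libraries. Its groups overlapped and it did not pass (log2 fold change -0.14, limma adjusted p = 0.314). Median ratio scaling left 7 of the 12 past the threshold and quantile normalization left 6, all of them higher, beside 4.73% and 2.31% of all genes higher under these scalings. In limma 6 passed without Mock replicate 3, 2 without quinpirole replicate 3 and 0 without any 1 of the other 4 libraries, while 11 of the 12 had a positive log2 fold change in each of these fits. After the length correction 3 of the 12 passed, Cdk1, Rrm2 and Tyms, beside 4.16% of all genes. Over the 7 lists, 5 genes passed with and without this correction, 14 passed only without it, and 1, Lin9, passed only with it.

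**Figure D4:**
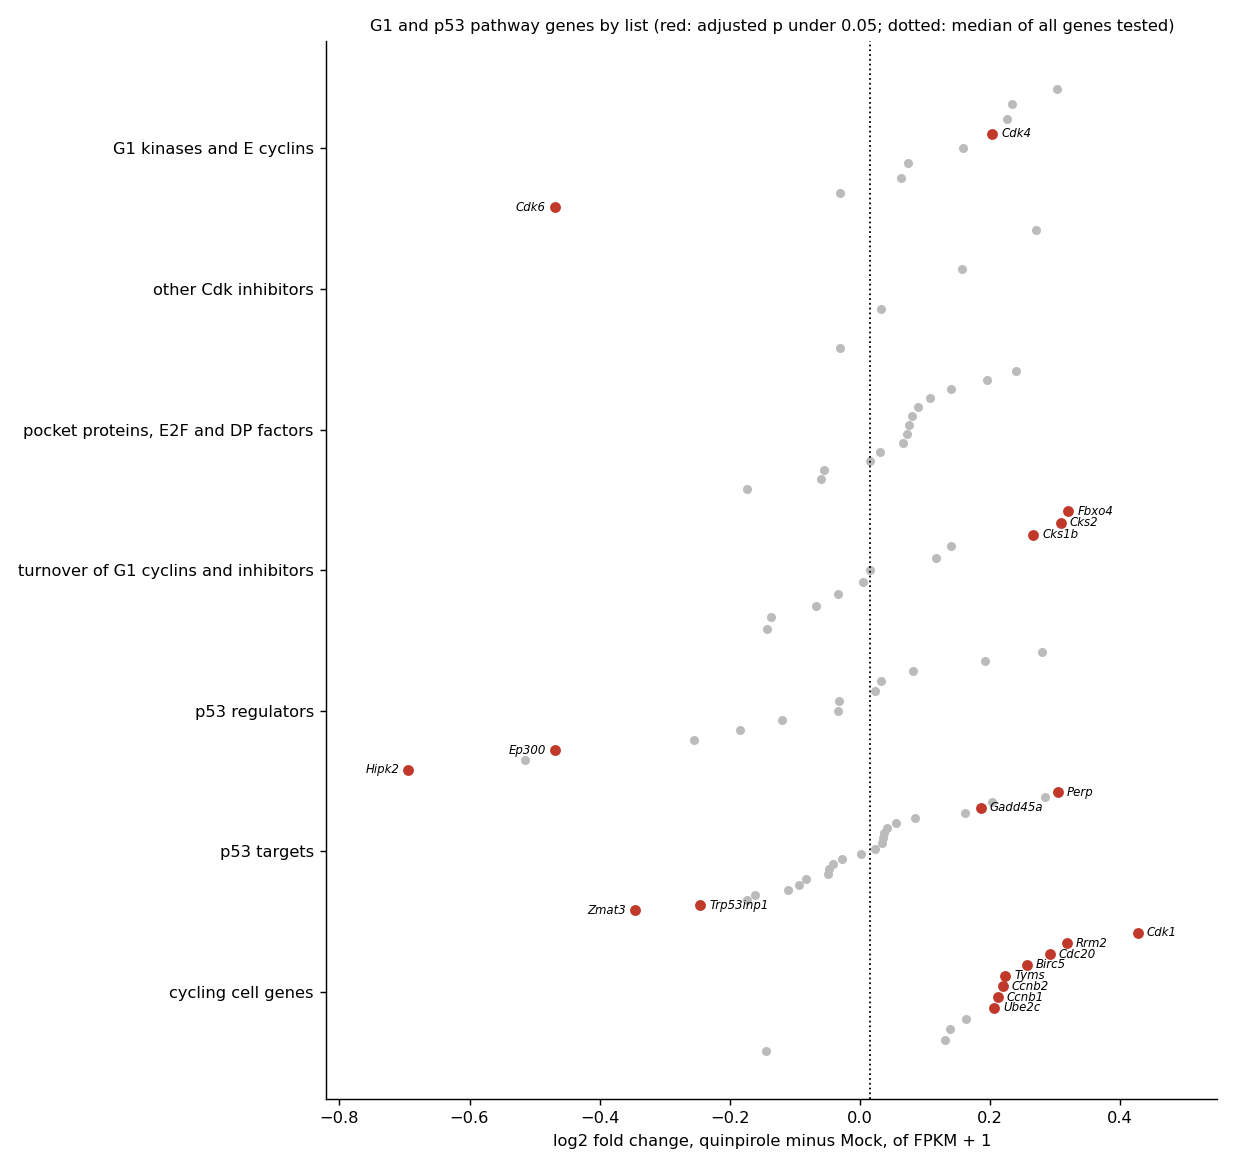
The log2 fold change of FPKM + 1 (quinpirole minus Mock) of each gene in the 7 pathway lists, with red points for an adjusted p under 0.05 and a dotted line at the median of all genes tested, 0.015. The red points of the cycling cell genes all lie to the right (8 genes), those of the p53 regulators to the left (2 genes), and the p53 targets have 2 on each side.

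Markers of other cell types moved with these groups in part. The 8 microglia markers summed to 502 to 518 FPKM in Mock and to 532 to 569 FPKM in quinpirole libraries. Of the 10 astrocyte markers 9 were tested and 2 were lower by limma (5.18% of all genes were lower). They were the ACSA-2 antigen gene Atp1b2 (log2 fold change -0.19, adjusted p = 0.0382) and the glutamate transporter gene Slc1a2 (-0.42, adjusted p = 0.0297). The 10 astrocyte markers summed to 1435 to 1599 FPKM in Mock and 1436 to 1463 FPKM in quinpirole libraries. The 8 neuron markers summed to 71.1 to 76.4 and 83.1 to 89.6 FPKM, with Stmn2 higher (0.22, adjusted p = 0.0322), and the 7 markers of oligodendrocyte precursors to 308 to 317 and 331 to 353 FPKM, with Olig1 higher (0.15, adjusted p = 0.0490). Olig1, at 261 to 301 FPKM, makes up most of that last sum, 4 of the 7 markers lay under 1 FPKM, and the mean of Pdgfra, a defining marker, was 0.656 in Mock and 0.471 FPKM in quinpirole libraries. The 6 mural markers summed to 2547 to 2716 and 2732 to 2903 FPKM, with Pdgfrb lower (-0.30, adjusted p = 0.0227), and Acta2 makes up nearly all of that sum. None of these marker sums was scaled to the FPKM totals of the libraries, which were higher in every quinpirole library. No marker of the oligodendrocyte, endothelial, ependymal, and neural stem and progenitor lists passed before the length correction. With that correction Atp1b2, Stmn2 and Pdgfrb still passed limma (adjusted p = 0.0419, 0.0454 and 0.0308). Slc1a2 and Olig1 did not (adjusted p = 0.0573 and 0.389). The part of these shifts in the results on Cdkn2a, Cdkn2c, Mdm2 and the cycling genes was not tested.

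The genes whose level over the 6 libraries was most like that of Cdkn2a, the member with the smallest p, were Calm2, Oxct1 and Fabp5, with Pearson's r of 0.997, 0.996 and 0.995 on the log2 scale over 6 libraries. Calm2 stood at 141, 150 and 142 FPKM in Mock and at 168, 174 and 165 FPKM in quinpirole libraries. In all, 195 genes had an r of at least 0.95 with Cdkn2a. These 6 points share 2 groups and their library totals, and the values are a description.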

How the data were processed

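RNA from ACSA-2 bead-isolated mouse astrocytes (3 Mock and 3 Quinpirole libraries, named as labelled) was sequenced in paired ends on an Illumina HiSeq from poly(A)-selected, unstranded libraries. The authors removed adaptors and poor reads, mapped with TopHat2 (version not given, build GRCm38 per the submitters' processing notes), kept reads with at most 1 mismatch, and deposited FPKM values per gene and library. The program that computed FPKM and the annotation were not given in the sources used here, and the tables hold no read counts.

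Of 17193 Ensembl identifiers, 17090 were matched to symbols, positions and exonic lengths in GENCODE M21 (GRCm38). Genes with a mean of at least 1 FPKM were tested on log2(FPKM + 1) with limma 3.58.1 (R 4.3.3, eBayes with a trend, two-sided), Benjamini-Hochberg adjustment over all genes tested, and a threshold of 0.05, after a test on simulated data. Fold changes on this scale understate the change of low genes. The length correction removed a loess curve (span 0.3) of each library's deviation against log2 exonic length. Depth was estimated from the steps of low FPKM values times exonic length in genes with 1 transcript of at least 2000 bases (56.9% to 64.3% of low values within 0.1 of a whole fragment), and covers counting error only. With 3 libraries against 3, a permutation test of 1 gene cannot go below p = 0.1 and was not used.

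The 10 genes and the lists were chosen with earlier results of these data known. Named beyond the 10 genes were those past the threshold in each pathway list (at most 6 by p), its 2 most abundant genes, markers past the threshold and the most abundant marker, apart from 1 marker that is not reported here. Tyms, Lin9, Mki67, Mog, Snap25, Pecam1, Pdgfra, Gjb6 and Dynlrb2 were named after their values were seen. Promoter sequences are from RefSeq (GRCm38.p6). Alternatives were another pseudocount, filters, scalings, variance models, a replicate block, length and GC corrections, a minimum change and leaving out each library.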

Additional observations from a re-analysis of the deposited data

How the results depend on the processing

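Cdkn2a, Cdkn2c and Mdm2 kept their direction in all 17 alternative fits and passed limma's threshold in 8, 5 and 8 of them, with adjusted p of 0.0211 to 0.229, 0.0338 to 0.136 and 0.0312 to 0.131. The 7 other genes passed in none. Of the 10 genes, 3 passed as reported, 1 passed without the eBayes trend, after the length correction and after the length and GC content correction (509 and 375 of all genes), and 0 at a minimum change of 1.5 times (38 of all genes, 3 of the 10 at an unadjusted p under 0.05). Leaving out 1 library each gave 0 to 2 of the 10 genes, 0 to 16 of the 87 pathway genes (19 as reported) and 3 to 1182 of all genes (1339 as reported), with the highest counts without Mock replicate 3 and, for all genes, 6, 3, 11, 25 and 214 without Mock replicates 1 and 2 and quinpirole replicates 1, 2 and 3. The counts of all genes also fell to 633 without a filter on low values (11 pathway genes), 783 under quantile normalization, of which 36.1% were higher compared with 52.6% as reported, and 714 without the eBayes trend, of which 41.0% were higher, while 57.8% were higher at a mean of at least 5 FPKM. After the length correction 6 pathway genes passed, and 6 after the length and GC content correction.

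Deviations from the group means had r of -0.103 to 0.026 between same-numbered libraries and -0.097 to 0.155 between differently numbered ones. With so few libraries these values cannot settle whether the numbers mark a shared batch, day or litter. The labels do not say what the numbers mark. With the replicate block 2 genes in all passed limma, 0 of the 10 genes (3 at an unadjusted p under 0.05) and 0 of the 87 (35 at an unadjusted p under 0.05). With the replicate block and the length correction 0 genes passed (2723 at an unadjusted p under 0.05, 2 of the 10 genes and 31 of the 87).

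Of the 10 genes and 34 others followed through the alternatives, signs turned only in those that did not pass as reported. This does not cover the markers named by level alone, the 3 genes most like Cdkn2a, Tyms, Lin9, Mki67 and Dynlrb2. The log2 fold change of Ccnd1 was -1.307e-05 under median ratio scaling, -0.15 under quantile normalization and -0.023 to 0.043 with 1 library left out. That of Ccnd2 was 0.013 after the length correction, with and without the replicate block, and 0.00044 with GC content, that of Ccnd3 was -0.12 to 0.22 with 1 library left out, and that of Cdkn1a was -0.032 under quantile normalization. That of Cdkn1b was -0.012 under median ratio scaling, -0.013 after the length correction with and without the replicate block, -0.047 under quantile normalization, -0.050 with GC content, and -0.11 to 0.084 with 1 library left out. Under quantile normalization Cdkn2b was at -0.018, Ddb1 at -0.10 and Phlda3 at -0.068. After the length correction, with and without the replicate block, Cdkn2b was at -0.084 and Phlda3 at -0.075, and with GC content they were at -0.054 and -0.018. The cause of these shifts was not tested. For the other named genes, 217 of 577 fits lost a call and 7 gained one.

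For the 10 genes, counting error at these depths was 0.415% to 3.65% in the library with the fewest estimated fragments of the gene. The spread over the 6 libraries (coefficient of variation) was 3.14% to 20.6%. FPKM per gene resolves neither the 2 products of Cdkn2a nor overlapping genes.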
